A study of Saccharomyces cerevisiae with 61 samples.

Results

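The comparison described here is that of a temperature-sensitive Top2 mutant, top2-1, with the wild type (WT) in meiotic budding yeast at 34 °C. Its members are the libraries whose titles name either genotype at 3 h, 34 °C and spike-in, and they number 8 of the 61 samples of the series. Each genotype is represented by 2 cultures, and each culture by 1 Top2 chromatin immunoprecipitation (ChIP) library and 1 input library. The series as a whole concerns topoisomerases in yeast meiosis, and 28 of its libraries, from 14 cultures, carry a spike-in.

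All cultures were of the SK1 background, a strain that enters meiosis efficiently and in synchrony. For both genotypes at 34 °C the cells were pre-grown at room temperature, spent 1 h in sporulation medium at room temperature and were then moved to 34 °C until collection at 3 h. The top2-1 strain was started at a higher cell density than the strains grown at 30 °C. The other spike-in cultures at 3 h, used below as further references, were WT (3 cultures), rec8 (2 cultures) and spo11 (2 cultures) at 30 °C. WT at 0 h and 30 °C (3 cultures) was also among the 12 other spike-in inputs to which input shares are compared below. Before immunoprecipitation, fixed meiotic cells of S288c, the reference laboratory strain, were added to each culture at 20%. No other allele is named for these groups. The strain tag of the top2-1 libraries is the number of the WT strain, whereas their descriptions and titles name the mutant, and the titles were followed. Counts per chromosome cannot show which allele a culture carries.

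Top2, topoisomerase II, passes one DNA duplex through a transient break in another and so removes supercoils and tangles between chromosomes. It is essential for separating sister chromatids and is found along the axes of meiotic chromosomes. The top2-1 allele encodes an enzyme that loses its activity at elevated temperature. Because every tube holds cells of both strains, the number of SK1 reads for each S288c read in the ChIP, divided by the same quotient in the input of that culture, gives a Top2 recovery on a scale set by the added cells. This quotient is called the spike-in scaled Top2 ratio below. It is a bulk measure, so that less Top2 on each chromosome and fewer cells with Top2 on their chromosomes cannot be told apart. The ratio takes all ChIP reads, and the spike-in libraries hold no ChIP without Top2. Reads recovered without Top2 were therefore not subtracted, and the percentages kept below include them.

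The 8 libraries held 1087617 to 3970438 assigned reads, and no chromosome of either genome had fewer than 5234 reads in any of them. The added S288c cells supplied 24.5% to 28.7% of the reads of the 4 inputs. In the ChIP libraries they supplied 14.6% and 16.8% of the reads of the WT cultures and 44.7% and 52.0% of those of the top2-1 cultures. Replicate libraries differed by more than counting noise, with chi-square values of 160 to 14332 at 31 degrees of freedom, so each was counted as a sample of its own. The chi-square took the chromosomes of both genomes together. It therefore includes differences between replicates in SK1 reads per S288c read as well as between chromosomes. According to the code in the file names, which has the form of a flow cell number, both WT cultures at 34 °C were sequenced on 1 flow cell and both top2-1 cultures on another. Genotype and flow cell therefore cannot be told apart between these groups, and the 4 other 3 h cultures that share the code of the top2-1 libraries (2 rec8, 1 spo11 and 1 WT, all at 30 °C) are given as a second reference. Those 4 differ from the mutant in temperature as well as in genotype.

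Over all 16 chromosomes, Top2 recovery in top2-1 cultures was 23.7% of that in WT cultures at 34 °C. Without chromosomes XII and XIV the mutant kept 21.8%. The ratio over the remaining 14 chromosomes was 2.01 and 1.69 in the WT cultures and 0.484 and 0.334 in the top2-1 cultures. The groups did not overlap, and the higher mutant culture lay at 28.7% of the lower WT culture. The difference was -2.20 on the log2 scale (pooled SD between cultures 0.295, n = 2 each), which is 4.58-fold lower in the mutant, against a counting error of at most 0.00448 for a culture. With 2 cultures against 2, a two-sided exact permutation test cannot give a p below 0.333, and it gave that value.

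Leaving out XII alone gave 22.3% and leaving out XIV alone gave 23.3%, so that most of the small shift came with XII. Against the 4 cultures of the same flow cell code the mutant kept 30.5% over all 16 chromosomes and 28.3% without XII and XIV. Against the 3 WT cultures at 30 °C it kept 31.5% and 29.7%. Both mutant cultures lay below each of the 9 other 3 h cultures, with a mean 29.0% of theirs over 16 chromosomes and 27.1% over 14 chromosomes. The exact permutation p for this was 0.0364, the smallest that 2 against 9 cultures can give, and 0.0636 after Benjamini-Hochberg adjustment over a family of 7 exact tests, which holds the main contrasts and leaves out their alternatives. The 9 references share the mutant cultures and partly each other between these comparisons, so the percentages are not independent.

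**Figure D1:**
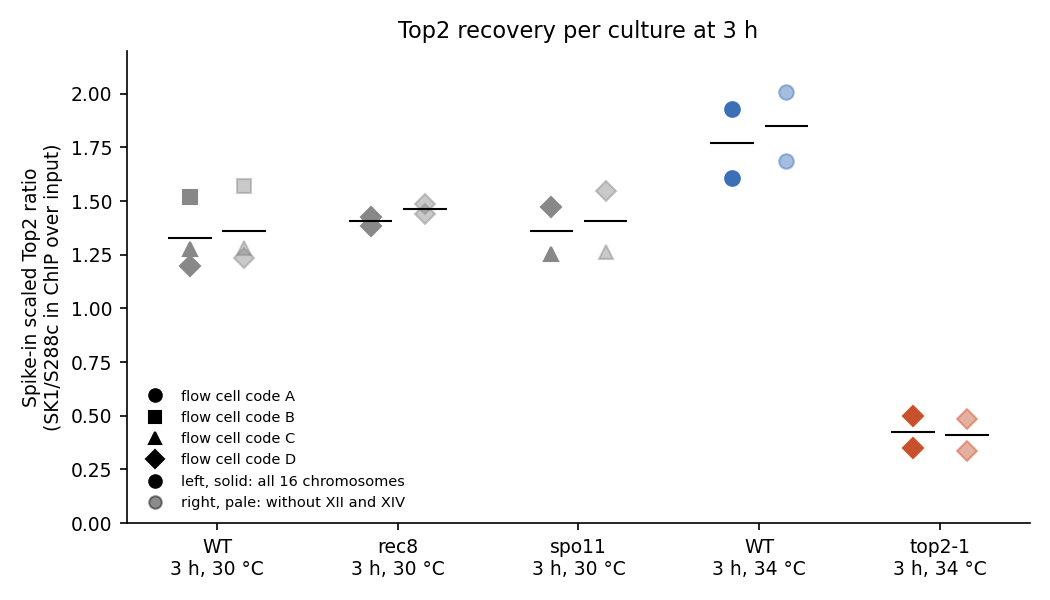
Spike-in scaled Top2 ratio (vertical axis, no unit) of each 3 h culture by genotype and temperature, over all 16 chromosomes (solid) and without XII and XIV (pale); horizontal bars are group means and marker shapes give the flow cell code. Both top2-1 cultures lie at or below 0.498, and every other culture lies above 1.

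Every chromosome had less Top2 in the mutant. When the SK1 reads of a chromosome were scaled to the S288c reads of the same chromosome, all 16 chromosomes were lower in top2-1 at an adjusted p under 0.05, which is 100% of those tested (edgeR's quasi-likelihood test with Benjamini-Hochberg adjustment). The largest adjusted p, 0.000452, was that of XII, and that of XIV was 5.15e-05. All chromosomes of a culture share its spike-in ratio, and hence most of the difference between cultures, so these are not 16 independent results. The edgeR test also borrows variance across these chromosomes, so each p is smaller than 2 against 2 cultures can bear. The exact permutation p of the genome-wide ratio was 0.333. XII was no longer called when either WT culture was left out (adjusted p = 0.129 without WT replicate 1 and 0.0668 without WT replicate 2, edgeR), and XIV was not called without WT replicate 1 (adjusted p = 0.0692).

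The 16 chromosomes kept a median of 22.1% of the WT level. On 14 of them the share kept lay in a narrow band, from 20.5% on V to 23.0% on X. XIV, at 28.5%, and XII, at 34.9%, lay outside that band. The SD of the log2 difference over chromosomes was 0.19 with all 16 and 0.054 without XII and XIV, whereas cultures of one group differed by a pooled SD of 0.25 to 0.33 on each chromosome. Most of that pooled SD is shared by the chromosomes of a culture, so it does not gauge differences between chromosomes.

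Chromosome V, which kept least, had ratios of 2.02 and 1.70 in the WT cultures and 0.462 and 0.312 in the top2-1 cultures. Chromosome X, which kept most of the 14, had ratios of 1.95 and 1.69 in WT and 0.497 and 0.350 in top2-1. On both chromosomes each WT value lay more than 3-fold above each mutant value. The gap of V to X was small beside the gap between replicate cultures, but the chromosomes of a culture largely share that gap. V lay above X in both WT cultures and below X in both mutant cultures.

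The shortest chromosomes are I, III and VI. Chromosome I had ratios of 1.95 and 1.65 in WT and 0.462 and 0.315 in top2-1, and so kept 21.2%. III and VI kept 22.3% and 22.6%. Chromosome IV, among the longest, had ratios of 2.04 and 1.71 in WT and 0.495 and 0.340 in top2-1 and kept 22.0%. The shares kept on these 4 chromosomes differed by less than the pooled SD between cultures, which does not gauge differences between chromosomes.

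Of the other chromosomes, II kept 22.8%, VII 21.2%, VIII 22.9% and IX 22.4%. XI kept 20.7%, XIII 22.0%, XV 21.7% and XVI 21.4%. The groups of cultures overlapped on none of the 16 chromosomes. Within a culture the 14 chromosomes spanned 1.90 to 2.07 in WT replicate 1, 1.57 to 1.74 in WT replicate 2, 0.462 to 0.506 in top2-1 replicate 1 and 0.312 to 0.350 in top2-1 replicate 2.

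**Figure D2:**
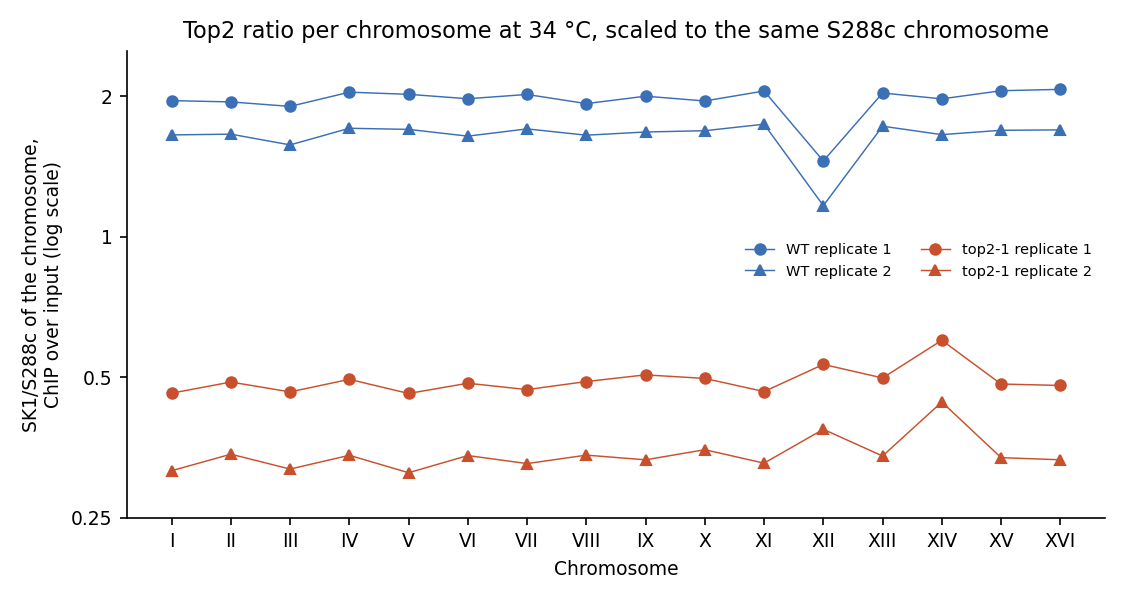
Spike-in scaled Top2 ratio of each of the 16 chromosomes (horizontal axis) in the 4 cultures at 34 °C, scaled to the S288c reads of the same chromosome, on a log axis. The lines of WT and top2-1 stay apart on every chromosome; XII dips to 1.45 and 1.17 in WT, and XIV stands out at 0.600 and 0.443 in top2-1.

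XII carries the ribosomal DNA array, and its higher value had a different make-up from that of the other chromosomes. Its ratio was 1.45 and 1.17 in the WT cultures, the lowest of all chromosomes there, and 0.533 and 0.387 in the top2-1 cultures, above all 14. Scaled to the S288c total of the 14 other chromosomes instead, XII had ratios of 1.85 and 1.60 in WT and 0.488 and 0.333 in top2-1, and kept 23.4%. The change in XII between these scalings lies in the S288c reads, which were in the denominator.

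The S288c reads of XII, counted per 100 reads of the 14 S288c chromosomes, were higher in the ChIP than in the input of the WT cultures, at 0.35 and 0.46 on the log2 scale, and lower in the ChIP than in the input of the top2-1 cultures, at -0.13 and -0.22. In the 4 other cultures of the same flow cell code this value was 0.18 to 0.30. It was -0.039 to 0.46 over all 9 other 3 h cultures, so both mutant tubes lay below the 9, although the labels name 1 kind of added cells for all. The S288c XII reads of the inputs also differed by flow cell code, at 14.7 ± 0.253 per 100 in WT at 34 °C (SD, n = 2), 21.5 ± 0.318 in top2-1 (n = 2) and 23.5 ± 1.79 in the 4 others of the same code. The part of these differences in the XII value was not tested.

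The SK1 reads of XII behaved more evenly. Relative to the 14 SK1 chromosomes, XII was -0.076 and -0.12 (log2, ChIP over input) in WT at 34 °C and -0.0071 and 0.013 in top2-1. The 9 other 3 h cultures spanned -0.14 to -0.062, below both mutant cultures. XII of the meiotic cells was thus near the mean of the other chromosomes in the mutant and slightly under it in the references.

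For XIV, too, the value depended on the scaling. Its ratio was 1.97 and 1.65 in WT and 0.600 and 0.443 in top2-1 with the S288c reads of XIV as the scale, the highest of all chromosomes in both mutant cultures. With the S288c total of the 14 other chromosomes as the scale it was 1.92 and 1.64 in WT and 0.488 and 0.338 in top2-1, and XIV kept 22.9%. Under that scaling all 16 chromosomes kept 20.5% (V) to 23.4% (XII), with a median of 22.0%. With the S288c total of all 16 chromosomes the range was 22.0% (V) to 25.1% (XII), with VI at 25.0% and XIV at 24.6%.

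**Figure D3:**
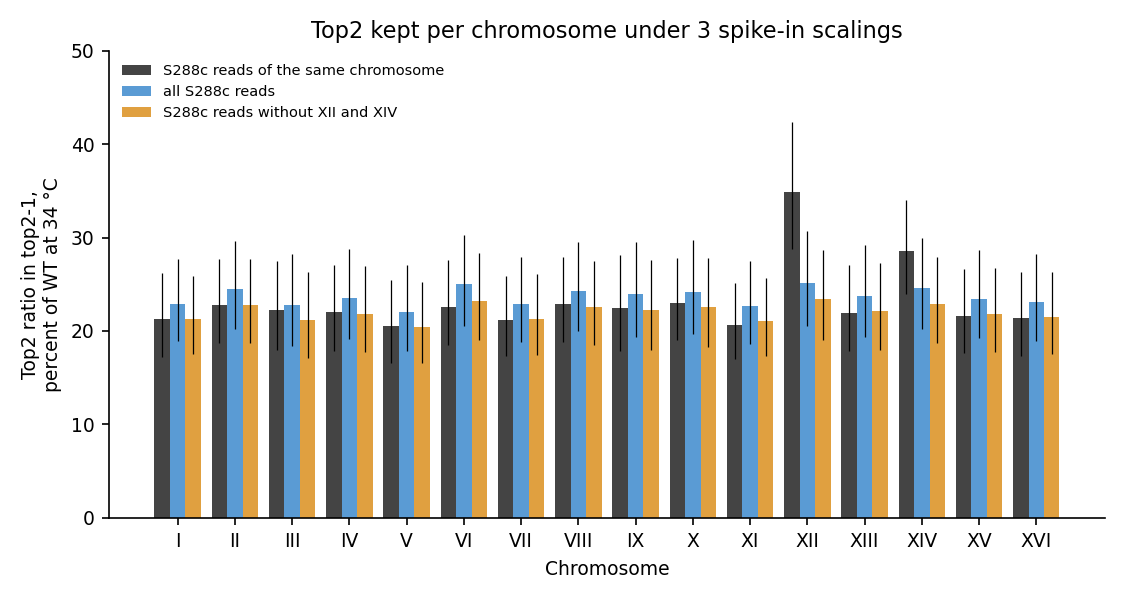
Top2 ratio in top2-1 as a percentage of WT at 34 °C (vertical axis) for each chromosome under 3 spike-in scalings; bars are ratios of geometric means over 2 cultures each, and lines span 1 standard error over cultures on the log2 scale. XII and XIV reach 34.9% and 28.5% when scaled to their own S288c reads and 23.4% and 22.9% when scaled to the 14 other S288c chromosomes.

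The XIV reads differed already in the inputs, before any immunoprecipitation. SK1 reads of XIV made up 5.24% and 5.27% of SK1 reads in the top2-1 inputs and 6.03% to 6.20% in the 12 other spike-in inputs. S288c reads of XIV made up 7.51% and 7.60% of S288c reads in the top2-1 inputs and 5.14% to 5.92% in the 12 others. The mutant inputs lay outside the range of the others for both genomes, below it for SK1 (log2 difference -0.23) and above it for S288c (0.47).

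Each of these differences had an exact permutation p of 0.022, the smallest for 2 against 12 inputs, and an adjusted p of 0.0636 over the 7 exact tests. XIV had been singled out with earlier results of these data known, so these p values do not test whether it stands out. The 5 other inputs with the flow cell code of the mutant had 6.16% to 6.20% for SK1 and 5.14% to 5.33% for S288c. These 5 include WT replicate 3 at 0 h and 30 °C. When the XIV reads of both genomes were added together, they made up 5.89% and 5.91% of all reads in the mutant inputs and 5.89% to 6.09% in the 12 others (exact permutation p = 0.110), so the ranges overlapped.

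Set against the share of XIV in the WT inputs at 34 °C, the top2-1 inputs held 8351 and 7930 fewer SK1 reads of XIV, which is 15.7% and 16.1% of those expected. They held 7484 and 6881 more S288c reads of XIV, 41.1% and 43.6% above expectation. The surplus was thus 89.6% and 86.8% of the shortfall, and with the 5 inputs of the same flow cell code as the reference it was 97.1% and 93.7%. The TOP2 gene itself lies on chromosome XIV in the RefSeq annotation of the S288c genome.

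The surplus S288c reads of XIV were also depleted in the ChIP. From input to ChIP, scaled to the 14 other S288c chromosomes, they had a ratio of 0.400 in top2-1 replicate 1 and 0.263 in replicate 2, where reads of the added cells average 1 by construction. The SK1 reads of the same cultures had ratios of 0.484 and 0.334 on that scale. With the 5 inputs of the same flow cell code as the reference the surplus had ratios of 0.426 and 0.296. In each case the ratio of the surplus was nearer to that of the SK1 reads than to 1. Counts per chromosome do not show whether the surplus reads came from the added cells or from the meiotic cells. The 28.5% kept on XIV takes all S288c reads of XIV as reads of the added cells, whereas the 22.9% uses none of them as its scale.

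**Figure D4:**
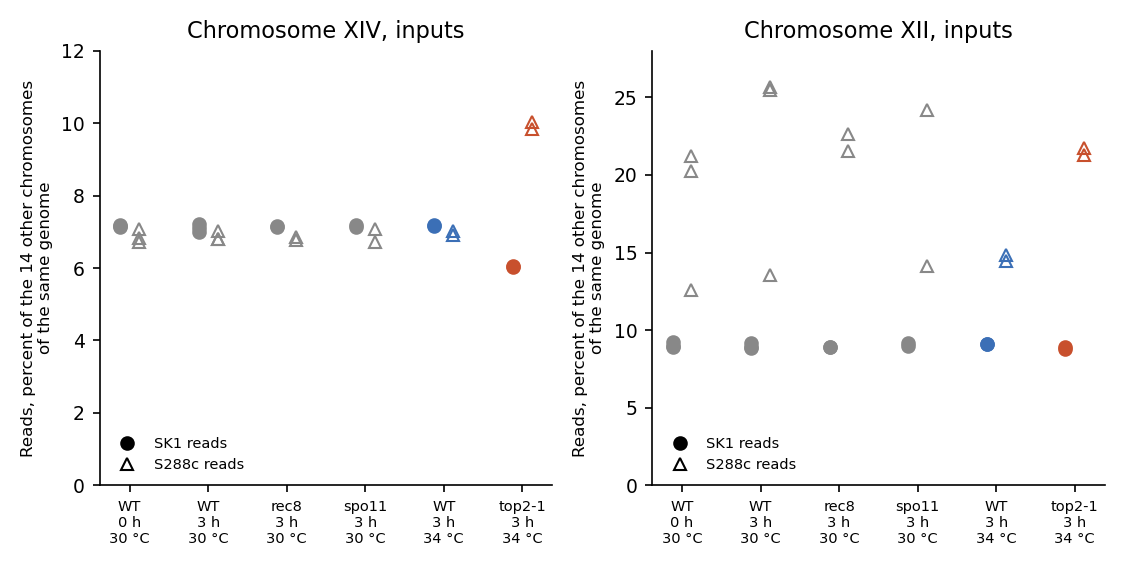
Reads of XIV (left) and XII (right) in the 14 spike-in inputs by group, per 100 reads of the 14 other chromosomes of the same genome, with SK1 reads as filled circles and S288c reads as open triangles. For XIV the top2-1 inputs have a mean of 6.04 for SK1 and 9.93 for S288c against 7.15 and 6.89 in the 12 others; for XII the S288c reads vary from 12.6 to 25.6 over the others.

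Other chromosomes differed between the inputs of the groups as well. Against WT at 34 °C, 9 of 16 SK1 chromosomes changed their share of the input reads (56.2%, edgeR), 6 of them upward, with VI at 0.24 and I at 0.13 on the log2 scale. Among the S288c chromosomes 15 of 16 were called (93.8%), with XII at 0.44 and XIV at 0.40 the 2 that were higher. Shares of one total depend on each other, so these calls rest on the scaling. With TMM (trimmed mean) factors in place of the total, 8 of 16 were called (50%, edgeR), 5 higher and 3 lower. Against the 5 inputs of the same flow cell code, 5 of 16 SK1 chromosomes (31.2%) and 1 of 16 S288c chromosomes (6.25%) were called. There XIV had a log2 difference of -0.23 for SK1 and 0.53 for S288c, while III, VII, XI and XVI of SK1 were higher by 0.014 to 0.046. SK1 reads of VI made up 3.71% and 3.73% of the top2-1 inputs, 3.61% to 3.75% of the 5 inputs of the same code and 3.14% and 3.15% of the WT inputs at 34 °C, so the share of VI went with the flow cell code.

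With the fall common to all chromosomes set aside, small differences between chromosomes remained. The measure here is the log2 of the share of a chromosome in the ChIP over its share in the input, both among the 14 SK1 chromosomes other than XII and XIV, and it uses no spike-in reads. Against WT at 34 °C, 7 of 14 chromosomes were called (50%), 4 higher and 3 lower (edgeR, adjusted p under 0.05). All 7 differences lay between -0.093 and 0.090, beside a difference of -2.20 common to the 14.

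Chromosome V had relative shares of 0.061 and 0.060 in the WT cultures and -0.024 and -0.042 in the top2-1 cultures. V was therefore above the mean of the chromosomes in WT and below it in the mutant (difference -0.093, edgeR adjusted p = 0.000366). Chromosome VI had -0.028 and -0.026 in WT and 0.052 and 0.075 in top2-1. VI went the other way, from below the mean to above it (difference 0.090, edgeR adjusted p = 0.00221).

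The other chromosomes called higher were II (0.060), VIII (0.049) and X (0.045), with edgeR adjusted p of 0.0032, 0.0447 and 0.0406. Those called lower were VII (-0.034) and XI (-0.052), with adjusted p of 0.00768 and 0.0236 (edgeR). The groups did not overlap on any of these, but neither did they on I, III, XIII and XVI, which were not called. They overlapped on IV, IX and XV only. No chromosome was called when either WT culture was left out, though 3 and 4 chromosomes had an unadjusted edgeR p under 0.05 in those fits, and 4 were called without top2-1 replicate 1. DESeq2 called 7 of 14 with all cultures.

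Against the 4 other cultures of the same flow cell code, 9 of 14 chromosomes were called (64.3%), 4 of them higher. In that comparison V had a difference of -0.085 (edgeR adjusted p = 8.36e-05) and VI of 0.13 (edgeR adjusted p = 1.41e-06). Chromosome VI lay between -0.10 and -0.036 in those 4 cultures and V between 0.035 and 0.077, outside the mutant values in both cases. Only on I, IV and XV did the mutant cultures overlap with those 4. Against all 9 other 3 h cultures 11 of 14 were called (78.6%), 6 of them higher. These comparisons share the mutant cultures, and their counts are not separate evidence.

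The same measure on the S288c chromosomes of the same tubes served as a control, since the labels name 1 kind of added cells for all tubes. Against WT at 34 °C, 1 of 14 S288c chromosomes was called (7.14%), namely III, which was lower by 0.070 (difference -0.070, edgeR adjusted p = 0.0187). S288c V had 0.056 and 0.052 in the WT tubes and 0.044 and 0.056 in the top2-1 tubes, which overlapped. S288c VI had -0.0015 and 0.015 in the WT tubes and 0.048 and 0.051 in the top2-1 tubes. The groups did not overlap on S288c VI, nor on S288c III, IV, VII, VIII, XI and XV. The difference of S288c VI, 0.042, had the same direction as that of SK1 VI and did not pass the test (edgeR adjusted p = 0.153, unadjusted p = 0.0219). Both mutant tubes also lay above the -0.015 to 0.043 of S288c VI in the 9 other 3 h cultures. Whether VI differed more in SK1 than in S288c was not tested. Against the 4 cultures of the same flow cell code 0 of 14 were called (0% of those tested, edgeR, with 1 at an unadjusted p under 0.05), and DESeq2 called 0 against WT at 34 °C with 1 at an unadjusted p under 0.05.

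**Figure D5:**
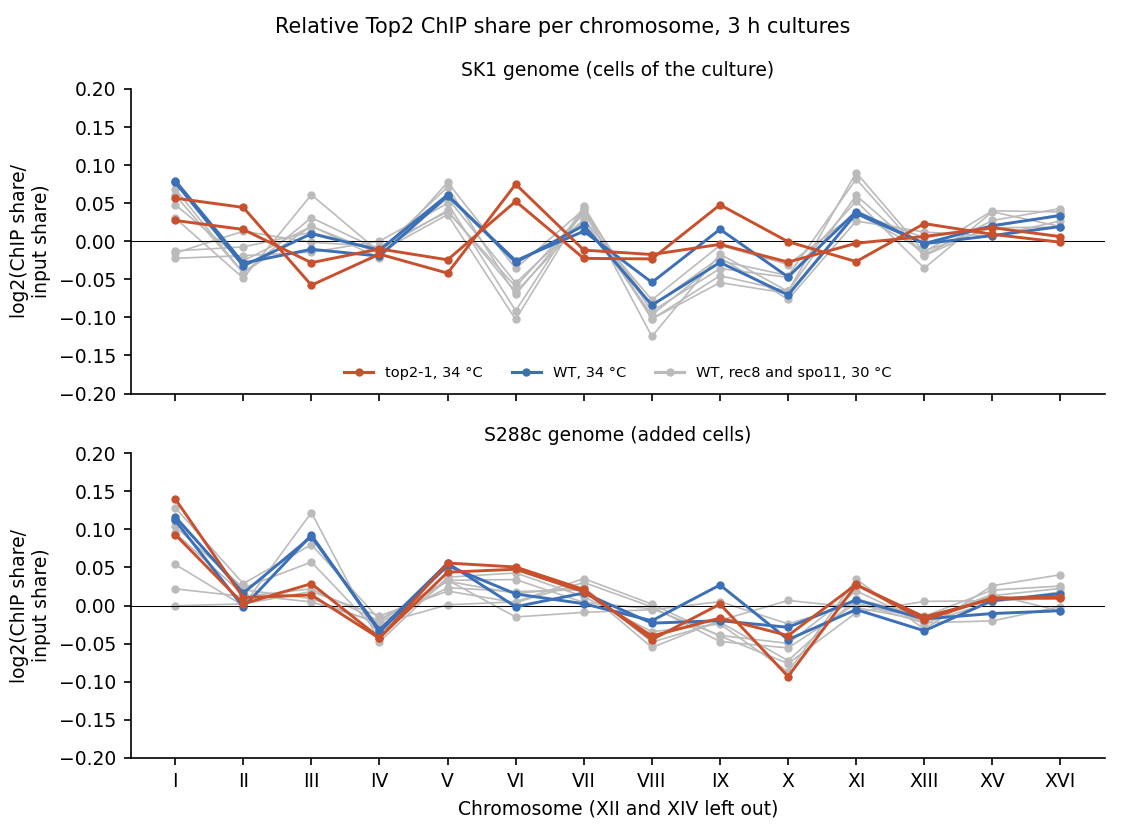
Log2 of the ChIP share over the input share of each of 14 chromosomes (vertical axis) in the 3 h cultures, for the SK1 genome (top) and the added S288c genome (bottom). In the SK1 panel both top2-1 lines lie outside the other cultures on all chromosomes shown but I, IV, IX, XIII and XV. They fall to -0.024 and -0.042 at V and reach 0.052 and 0.075 at VI. In the S288c panel both lie above the others at VI, at 0.048 and 0.051, and both lie outside them on no other chromosome.

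The chromosome pattern of the mutant had little likeness to that of the other cultures. Across the 14 SK1 chromosomes, the relative shares of the WT cultures at 34 °C correlated with the mean of the 3 WT cultures at 30 °C at r = 0.85 and 0.74, and those of the rec8 and spo11 cultures at r = 0.87 to 0.97. The top2-1 cultures had r = -0.38 and -0.20 with the same mean. The S288c chromosomes of the top2-1 tubes had r = 0.79 and 0.83 with their own mean in WT at 30 °C. These coefficients are descriptions over 14 chromosomes, which share a library and its base composition, and the measure was chosen after the data were seen.

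The spread among chromosomes in the mutant was at the low end of the 3 h cultures. The SD of the relative share over the 14 SK1 chromosomes was 0.0274 and 0.0369 in the top2-1 cultures and 0.0463 and 0.0385 in WT at 34 °C. It was 0.0385 to 0.0635 over the 9 other 3 h cultures (mean 0.0480), so both mutant cultures lay below all 9, the second by a small margin. The WT cultures at 0 h and 30 °C had 0.0215, 0.0346 and 0.0522, so a spread this low was not particular to the mutant. Counting error alone would give an SD of 0.0104 and 0.0113 in the mutant libraries. The exact permutation p against the 9 was 0.0364, the smallest possible, and 0.0636 after adjustment over the 7 exact tests. For the S288c chromosomes of the same tubes the SD was 0.0387 and 0.0543, within the 0.0250 to 0.0525 of the 9 others for the first and above it for the second (exact permutation p = 0.436).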

How the data were processed

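The deposited files give raw counts of reads for each chromosome of S288c and of SK1 (Yue assembly, per the file names), with no normalization by the authors. The submitters' processing notes name Bowtie; its settings, and the mark PM in the file names, are not given in the sources used here. The last line of each table, for unassigned reads, was 0 and was left out.

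Ratios were computed per culture from these counts and compared by two-sided exact permutation tests. Per-chromosome tests used edgeR 4.0.16 in R 4.3.3 (quasi-likelihood test of the interaction of ChIP with genotype, with culture in the model, dispersion at least 0.0001 because edgeR's deviances fail at these counts below it), with DESeq2 1.42.0 and limma 3.58.1 as alternatives. The code was tested on simulated data. Values are given for all 16 chromosomes, and those in full are I, IV, V, XII, XIV and the chromosomes that kept most and least. Members, chromosomes and tests were chosen with earlier results of these data known. The series' design text speaks of biological replicates, and nothing says more of how cultures were separated. Replicate numbers are shared between the groups, but nothing in the sources used here ties cultures of the same number together. Python 3.11.15 was used otherwise. Peak lists, tracks and transcript levels were not used here.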

Additional observations from a re-analysis of the deposited data

How the results depend on the processing

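Depth limited the genome-wide ratio little, since its counting errors were far below the spread between cultures. The 2 cultures per group did limit it. For the relative shares, counting error reached the spread between cultures on some chromosomes and not on others. SK1 VI had counting errors of 0.0116 and 0.0126 in top2-1 beside a pooled SD of 0.0113. SK1 IX had 0.0117 and 0.0128 beside 0.0339. The genome-wide difference was -2.34 to -1.82 on the log2 scale with a culture left out in turn, and -1.79 against all 9 other 3 h cultures, where the exact permutation p was 0.0364. The median kept per chromosome was 28.7% against the cultures of the same flow cell code and 30.0% against WT at 30 °C, in place of 22.1%. All 16 chromosomes stayed lower under every scaling, tool and reference tried; with a culture left out, 14 to 16 were called.

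The 7 SK1 chromosomes with a changed relative share became 11 against the 9 other cultures and 0 to 7 with a culture left out. For the S288c chromosomes the count of 1 became 15 with all 16 chromosomes, 4 without XII alone, 14 without XIV alone, and 0 without I, III and VI, with DESeq2, against either other reference, and 0 to 1 with a culture left out. In edgeR, 0 to 2 S288c chromosomes had an unadjusted p under 0.05 in the fits with none called. Input shares called fell from 9 to 1 for SK1 against all 12 other inputs and to 5 against the 5 of the same flow cell code. For S288c they fell from 15 to 8 with TMM factors, 6 with DESeq2, and 1 against the 12 or the 5. The XIV input share differed by -0.23 for SK1 and 0.53 for S288c against the 5 inputs (exact permutation p = 0.0952, the smallest possible). Against WT at 34 °C it differed by -0.23 and 0.40 (exact permutation p = 0.333, the smallest possible). XIV reads of both genomes summed, as a share of all reads, are a different quantity. That share differed by -0.021 against the 12 other inputs (exact permutation p = 0.110). The S288c spread over chromosomes, higher by 0.00082 against WT at 34 °C, was -0.0070 without top2-1 replicate 2 and at most 0.0086 with another culture left out. The cause of these shifts was not tested.

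With the replicate number as a block, the genome-wide difference stayed at -2.08 (exact sign-flip p = 0.5, the smallest possible), 16 chromosomes stayed lower, the relative share was called on 1 SK1 and 0 S288c chromosomes, and the input counts stayed at 9 and 15. Deviations of same-numbered cultures correlated at -0.35 (SK1) and 0.23 (S288c) over 14 chromosomes. The genome-wide log2 ratio was higher in replicate 1 than in replicate 2 in both groups, by 0.264 in WT and 0.515 in top2-1. With 2 cultures per group these values cannot show whether the numbers pair cultures. With the numbers crossed, a choice made after seeing the data, 8 SK1 and 0 S288c chromosomes were called. Without the dispersion floor edgeR called 7 relative shares again, 3 higher and 4 lower.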
